A study of Bos taurus with 6 samples.

Results

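NF-kappaB subunits and cytokine response genes were described in bovine blastocysts produced in vitro that differed in their survival after vitrification, a rapid freezing method that avoids ice. The set held 10 named genes, and 9 of them were found by name among the 9537 genes of the deposited table. The exception was RELB, the NF-kappaB subunit that partners the NFKB2 product, which was not analysed here. The members were chosen by their values and calls in these same libraries, in the comparison of low with high cryosurvival. Their differences between the groups are therefore given as a description, and the calls on them are not read as tests. The study compared 3 libraries of embryos with low cryosurvival and 3 of embryos with high cryosurvival. All embryos were Bos taurus blastocysts grown in the medium SOFaaci. The sample names carry NV for each low and V for each high cryosurvival library, without an explanation, so a further difference that these codes may mark cannot be told apart from cryosurvival. The labels state no sire, breed, day of development or number of embryos per library, and do not place the RNA collection before or after vitrification.

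NF-kappaB is a family of dimeric transcription factors held in the cytoplasm by inhibitors such as the product of NFKBIA. Tumour necrosis factor, interleukin-1 and Toll-like receptors activate the IkappaB kinases, which leads to destruction of the inhibitor. A slower branch acts through the kinase encoded by MAP3K14 and the processing of the NFKB2 precursor, which pairs with RELB. Adhesion molecules, chemokines, cytokines and the inhibitors themselves are among the targets, so the pathway limits itself. Cytokines that signal through JAK kinases and STAT factors induce a separate brake, SOCS3. These roles are known mainly from human and mouse cells.

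The 6 libraries held 14651477 to 19467022 reads in the table, and 1 read was worth 0.0499 to 0.0751 CPM (reads scaled to a fixed library size). Low cryosurvival library 2 stood apart. The SD over all genes of its log2(CPM + 1) deviation from the mean of the other low libraries was 0.668, against 0.407 and 0.337 in low libraries 1 and 3 and 0.186 to 0.241 in the high libraries. Its reads in the table came to 1.1 times its scaled library size, against 0.961 to 0.996 in the other libraries. Results are therefore given with and without it. The defining markers of the labelled stage were present, with 13 of 14 trophectoderm and 9 of 10 inner cell mass markers in the table, among them CDX2, GATA3, KRT8, POU5F1, NANOG and SOX2.

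All 9 measured members had a higher mean in low than in high cryosurvival embryos. The low over high ratio of mean CPM ran from 1.20 for NFKB1 to 4.54 for TNFRSF9, which encodes 4-1BB, a costimulatory protein of activated T cells. In 8 members each low library lay above each high library, and in NFKB1 the groups overlapped. Of all 9537 genes, 10.4% had every low library above every high one, and 50% had a positive difference. The median difference of the members was 0.94 on the log2(CPM + 1) scale, against 0.00 for all genes. The authors' deposited table called 6 of the 9 higher in low cryosurvival at an adjusted p below 0.05, which were NFKB2, ICAM1, CXCL16, TNFRSF9, SOCS3 and IL2RG. That table called 0.912% of all genes in this direction. Because the members were picked on this contrast, nothing is read from these counts. In bulk RNA, more cells that carry a transcript and more transcript per cell cannot be told apart.

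**Figure D1:**
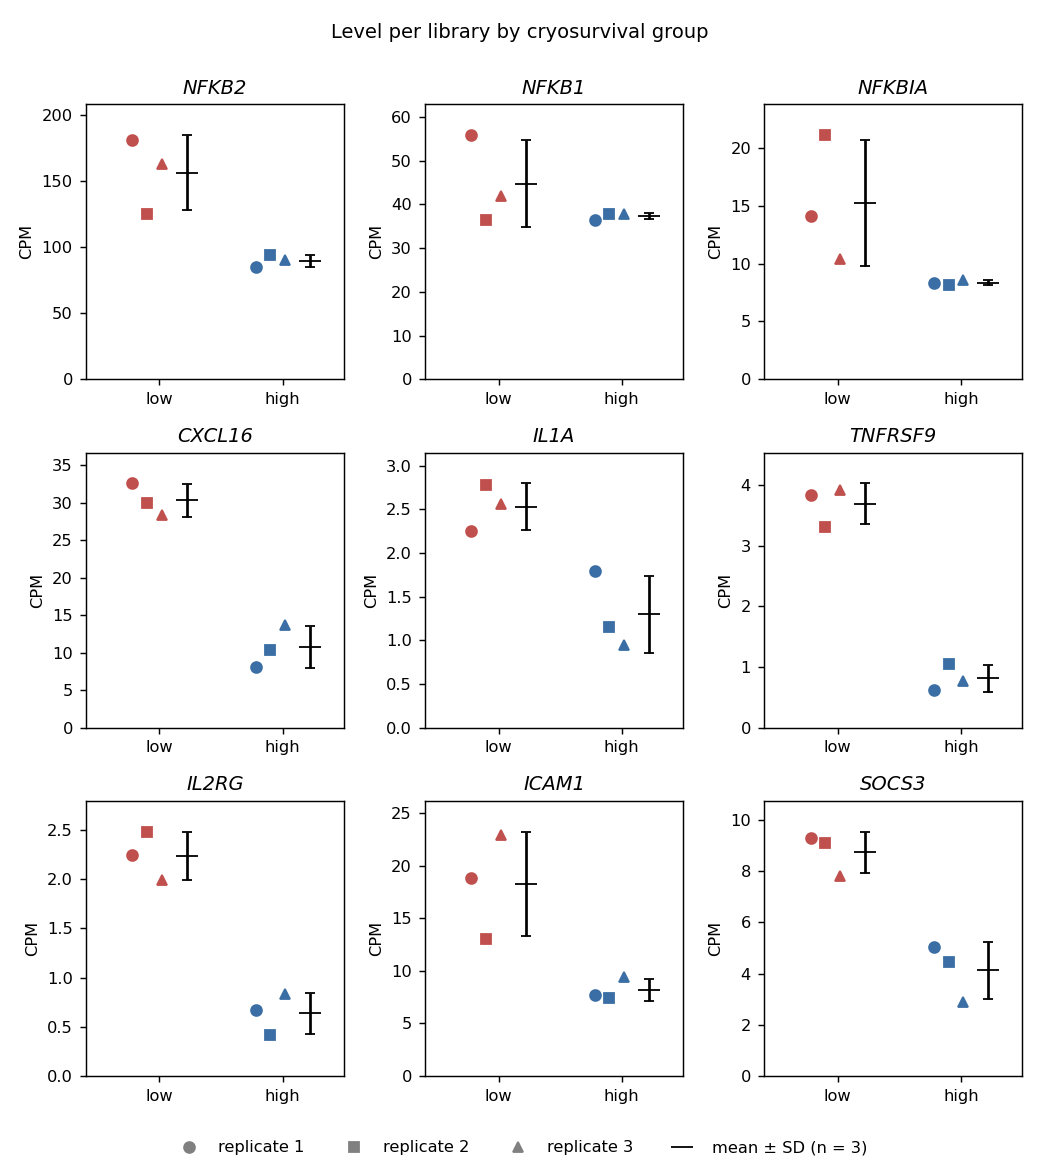
CPM per library (vertical axis, from 0) of the 9 measured members in the 3 low and the 3 high cryosurvival libraries, with a symbol per replicate number and the mean ± SD beside them. Apart from NFKB1, each member's low libraries lie above its high libraries, with the widest gap in TNFRSF9, whose lowest low library was 3.15 times its highest high library.

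Among the subunits, NFKB2 differed more than NFKB1. NFKB2, the precursor of the subunit made in the slower branch, was at 181, 125 and 163 CPM in low cryosurvival libraries 1, 2 and 3, against 84.9, 93.9 and 90.0 CPM in high libraries 1, 2 and 3. The groups did not overlap, and low library 2 was the closest to the high libraries. The means were 156 ± 28.4 and 89.6 ± 4.48 CPM (SD, n = 3 each), a ratio of 1.74 and a log2 difference of 0.78 ± 0.16 (SE). NFKB1, the precursor of the classical subunit, was at 55.9, 36.5 and 41.9 CPM in low libraries against 36.5, 37.7 and 37.8 CPM in high libraries. Low library 2 was level with the high libraries, and low library 1 alone was far above them. The log2 difference of NFKB1 was 0.23 ± 0.17 (SE) and came to 0.07 without low library 1. Within each library the CPM of NFKB2 divided by that of NFKB1 was 3.24, 3.43 and 3.89 in low and 2.33, 2.49 and 2.38 in high cryosurvival embryos. This ratio did not overlap between the groups and, unlike either gene alone, was not lowest in low library 2 among the low libraries. Since NFKB2 was picked on this contrast, the separation of the ratio is a description only.

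The other subunits, which were not among the members, also had higher means in low cryosurvival. RELA, the classical transactivating subunit, was at 67.7 ± 5.36 against 54.4 ± 3.55 CPM, a log2 difference of 0.31 (limma adjusted p = 0.396). Its 3 low libraries lay above its 3 high ones. REL, the third subunit with a transactivation domain, was at 2.57 ± 1.02 against 1.43 ± 0.239 CPM (limma adjusted p = 0.443), with overlapping groups. Neither passed the threshold of 0.05 over all genes with 6 libraries, and both did without low library 2, RELA at 0.0494 and REL at 0.0241 (limma adjusted p). Without that library limma called 8.15% of all genes higher in low cryosurvival.

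NFKBIA, the inhibitor that NF-kappaB itself induces, was the member with the most uneven low libraries. It was at 14.1, 21.1 and 10.4 CPM in low cryosurvival libraries 1, 2 and 3, against 8.29, 8.18 and 8.60 CPM in high libraries. The groups did not overlap, but low library 3 was only 1.21 times the highest high library. Here low library 2 was the highest, the reverse of its place for NFKB2. The highest low library was 2.04 times the lowest, while the high libraries were within a factor of 1.05. Their SD of 0.216 CPM was below the 0.676 CPM that counting reads alone gives, so this closeness does not measure the spread between embryo samples. The same held for NFKB1, with 0.698 CPM against 1.43 CPM. The log2 difference of NFKBIA was 0.74 ± 0.24 (SE), and 0.49 ± 0.13 without low library 2. NFKB2 divided by NFKBIA was 12.8, 5.93 and 15.7 in low against 10.2, 11.5 and 10.5 in high cryosurvival libraries. This ratio of 2 transcripts overlapped between the groups, with low library 2 lowest of all.

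The ligands among the members were CXCL16 and IL1A. CXCL16, a membrane-bound chemokine that also acts as a scavenger receptor, was at 32.6, 30.04 and 28.3 CPM in low libraries, against 8.12, 10.4 and 13.6 CPM in high libraries. The low libraries were close to each other and at least 2.08 times the highest high library. Its means were 30.3 ± 2.15 and 10.7 ± 2.77 CPM, and its log2 difference of 1.44 ± 0.19 (SE) was the sixth in absolute size over all 9537 genes. This rank depends on the log2(CPM + 1) scale, which understates the fold of lowly expressed genes, and CXCL16 was picked on this contrast. IL1A, an interleukin released by stressed or dying epithelial cells, was at 2.25, 2.78 and 2.57 CPM in low against 1.79, 1.15 and 0.943 CPM in high cryosurvival embryos. The groups were separated by a ratio of 1.25 between the nearest libraries, and the values rest on 131 reads in the low and 71 reads in the high libraries together. The log2 difference of IL1A was 0.63 ± 0.17 (SE). IL1RN, the secreted antagonist of interleukin-1, was at 98.8 ± 16.4 against 99.2 ± 9.06 CPM, a log2 difference of -0.01 (limma adjusted p = 0.988).

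The receptors TNFRSF9 and IL2RG had the largest ratios, and the fewest reads in the high libraries. TNFRSF9 was at 3.84, 3.31 and 3.93 CPM in low libraries, from 77, 44 and 75 reads, against 0.616, 1.05 and 0.777 CPM in high libraries, from 11, 20 and 14 reads. Low library 2 fell in with the other low libraries here. The log2 difference of TNFRSF9 was 1.38 ± 0.14 (SE) with a pseudocount of 1 and 1.91 with one of 0.25, since a pseudocount shrinks the difference of genes at low CPM. IL2RG, the common gamma chain of several interleukin receptors, was at 2.25, 2.48 and 1.99 CPM in low libraries, from 45, 33 and 38 reads. In high libraries it was at 0.672, 0.419 and 0.832 CPM, from 12, 8 and 15 reads. The groups were apart by a ratio of at least 2.39, and the means were 2.24 ± 0.245 and 0.641 ± 0.208 CPM, a ratio of 3.49. The high mean of IL2RG is below 0.737 CPM, the lowest mean over 6 libraries in the table. A gene at that level in both groups would not be among the genes measured, so its presence depends on its low cryosurvival level.

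ICAM1 and SOCS3 are targets of cytokine signals. ICAM1, an adhesion molecule bound by leukocyte integrins, was at 18.9, 13.0 and 22.9 CPM in low libraries, against 7.73, 7.39 and 9.43 CPM in high libraries. The groups did not overlap, and low library 2 was again the lowest of the low libraries. The means of 18.2 ± 4.97 and 8.18 ± 1.09 CPM gave a ratio of 2.23 and a log2 difference of 1.04 ± 0.22 (SE). ICAM1 divided by NFKB2 was 0.104, 0.104 and 0.140 in low against 0.0910, 0.0788 and 0.105 in high cryosurvival libraries, with overlap. SOCS3, the inhibitor of JAK signalling downstream of gp130, was at 9.29, 9.09 and 7.80 CPM in low against 5.04, 4.46 and 2.88 CPM in high libraries. Its low libraries lay within a factor of 1.19 and its high libraries within 1.75. The log2 difference of SOCS3 was 0.94 ± 0.19 (SE), while STAT3, the main factor it restrains, was at 99.8 ± 5.67 against 92.5 ± 8.57 CPM, a log2 difference of 0.11 (limma adjusted p = 0.844).

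**Figure D2:**
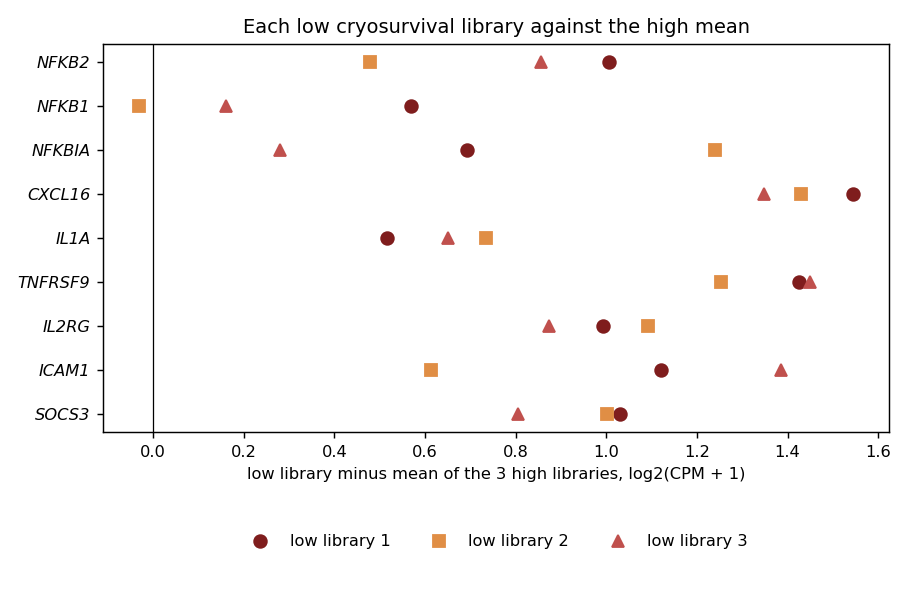
Each low cryosurvival library minus the mean of the 3 high libraries (horizontal axis, log2(CPM + 1)) for the 9 measured members. Low library 2 is the leftmost for NFKB2, NFKB1, TNFRSF9 and ICAM1 and the rightmost for NFKBIA, IL1A and IL2RG.

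The low libraries shared the direction of the set but not its order. The median member was 1.01, 1.0 and 0.86 above the high mean in low libraries 1, 2 and 3 on the log2(CPM + 1) scale, while the median of all genes was 0.00 in each. Low library 2 was the lowest low library for 4 members and the highest for 3. NFKBIA was 1.24 above the high mean there, against 0.69 and 0.28 in low libraries 1 and 3, and ICAM1 was 0.61 above, against 1.12 and 1.39. CXCL16, TNFRSF9 and SOCS3 differed little between the low libraries, at 1.35 to 1.54, 1.25 to 1.45 and 0.80 to 1.03. For TNFRSF9 the SD of the low libraries, 0.338 CPM, was below the 0.464 CPM that counting reads alone gives. Its closeness therefore does not measure the spread between embryo samples. The same held in the low libraries for IL2RG, with 0.245 against 0.366 CPM, and IL1A, with 0.268 against 0.39 CPM.

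Limma called 0% of the 9537 genes, and so 0 of the 9 members, at an adjusted p of 0.05, with 1142 genes and 8 members at an unadjusted p below 0.05. Voom on the reads recovered from the CPM steps also called 0 genes, with 1112 at an unadjusted p below 0.05. Without low library 2 limma called 6 members, each higher in low cryosurvival, against 8.15% of all genes in that direction. They were the same 6 as in the authors' deposited table, which shares these libraries. NFKB2 then had a log2 difference of 0.93 ± 0.10 and ICAM1 one of 1.25 ± 0.13 (SE). NFKB1, NFKBIA and IL1A were the other 3, at 0.37, 0.49 and 0.58. The members were picked on this contrast in these libraries, so nothing is read from their calls here either.

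**Figure D3:**
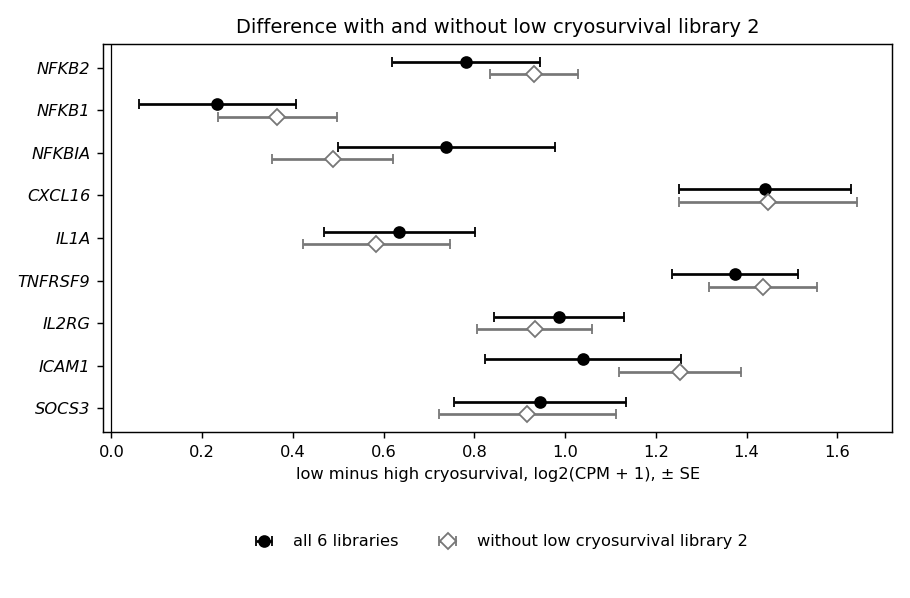
Difference of low minus high cryosurvival (horizontal axis, log2(CPM + 1), ± SE) for each measured member with all 6 libraries (filled circles) and without low cryosurvival library 2 (open diamonds). NFKB2 and ICAM1 have the larger value without that library, at 0.93 and 1.25, NFKBIA the smaller, at 0.49, and CXCL16 is at 1.44 with it and 1.45 without it.

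The wider pathway was followed in 8 lists of subunits, inhibitors, kinases and adaptors, receptors, ligands, chemokines, JAK and STAT genes and further targets. Beside the members, 100 of their genes were measured. Of these, 77 had a higher and 23 a lower mean log2 level in low cryosurvival embryos, with a median difference of 0.20. Of all genes, 50% had a positive difference. Limma called 0 of them (smallest adjusted p = 0.143), with 20 higher and 1 lower at an unadjusted p below 0.05, against 598 higher and 544 lower of all 9537 genes, and voom called 0. In 26 the low libraries were all above the high ones, against 10.4% of all genes. In 4 they were all below, a direction whose share over all genes was not counted. Without low library 2 limma called 22 higher and 2 lower, against 8.15% and 5.48% of all genes. The authors' deposited table called 3 of the 100, CCR7, NGFR and IFNAR1, each higher in low, against 0.912% of all genes in that direction. The lists were written with earlier results of these data known, so nothing is read from these counts.

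Receptors outside the members included all of these 3 genes. CCR7, a chemokine receptor of migrating lymphocytes and dendritic cells, was at 3.20, 2.70 and 4.76 CPM in low against 1.23, 0.891 and 1.28 CPM in high libraries. It had the smallest adjusted p of the pathway genes beside the members (limma, 0.143), and 0.003 in the authors' deposited table. NGFR, the low-affinity neurotrophin receptor, which belongs to the same family as TNFRSF9, was at 14.1 ± 4.36 against 6.56 ± 1.33 CPM (limma adjusted p = 0.222). IFNAR1, a chain of the type I interferon receptor, through which the maternal recognition signal interferon tau acts in cattle, was at 19.6 ± 4.36 against 9.92 ± 1.52 CPM (limma adjusted p = 0.179). In all 3 the groups did not overlap. The authors' deposited table gave adjusted p values of 0.041 for NGFR and 0.038 for IFNAR1. TNFRSF12A, the receptor of the cytokine TWEAK, had the highest level of the receptor list, at 156, 209 and 165 CPM in low against 107, 116 and 109 CPM in high libraries, and its log2 difference was 0.66 (limma adjusted p = 0.179). Without low library 2 limma called 8.15% of all genes higher in low cryosurvival. CCR7, NGFR, IFNAR1 and TNFRSF12A were among them, at limma adjusted p values of 0.0163, 0.0161, 0.0145 and 0.0218. TNFRSF4 of the receptor list and SOD2 of the further targets, named after their values were seen, were the 2 called lower in low cryosurvival without that library, at log2 differences of -0.74 and -0.59 (limma adjusted p = 0.0223 and 0.0242). Of the 11 measured receptors of that list beside TNFRSF9, 9 had a higher and 2 a lower mean, with a median of 0.27. TNFRSF21, a death receptor, was at 53.9 ± 9.91 against 49.0 ± 1.77 CPM.

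The signalling core between receptors and subunits stood closer to 0. Of 25 measured kinases and adaptors 17 had a higher and 8 a lower mean, with a median log2 difference of 0.14 and 0 called by limma, against 2 at an unadjusted p below 0.05. TRAF3, an adaptor that restrains the slower branch, was at 21.6, 15.2 and 20.0 CPM in low against 12.1, 13.6 and 12.1 CPM in high libraries, a log2 difference of 0.54 (limma adjusted p = 0.26). TRAF1, an adaptor bound by TNFRSF9, was at 10.6 ± 1.87 against 7.32 ± 1.20 CPM (0.353). IKBKG, the regulatory subunit of the IkappaB kinase, was at 72.6 ± 5.37 against 69.1 ± 1.83 CPM (0.909), and TOLLIP, a brake on Toll-like receptor signals, at 243 ± 19.0 against 204 ± 18.9 CPM (0.554). Among the 10 inhibitors measured beside NFKBIA, 7 had a higher and 3 a lower mean. NFKBIE, another IkappaB protein, was at 54.3, 40.8 and 43.3 CPM in low against 33.0, 36.7 and 30.1 CPM in high libraries, a log2 difference of 0.45 (limma adjusted p = 0.321). TNIP1 and COMMD1, the inhibitors with the highest levels, had log2 differences of 0.17 and -0.02. Without low library 2 limma called 4 kinases and adaptors and 2 inhibitors beside NFKBIA, each higher in low cryosurvival, against 8.15% of all genes. TRAF3 and NFKBIE were among them, at limma adjusted p values of 0.0179 and 0.0469. MAP3K14, named after its values were seen, was at 26.1, 6.91 and 19.3 CPM in low against 13.4, 14.3 and 10.1 CPM in high libraries. Its limma adjusted p was 0.899 with low library 2 and 0.039 without it.

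Ligands of the tumour necrosis factor and interleukin-1 families gave no common direction. Beside IL1A, 2 had a higher and 3 a lower mean, with a median of -0.01. IL18 was at 37.5 ± 12.6 against 33.6 ± 8.36 CPM and IL36RN, an antagonist, at 20.7 ± 5.28 against 16.6 ± 2.42 CPM. Of this list 15 genes were not in the table and were not analysed here, TNF and IL1B among them. The 5 measured chemokines and chemokine receptors beside CXCL16 all had a higher mean in low, with a median of 0.41, and 0 were called by limma, with CCR7 and CXCR1 at an unadjusted p below 0.05. CXCL5, a neutrophil attractant, was at 21.7, 28.6 and 13.9 CPM in low against 13.4, 16.4 and 16.3 CPM in high libraries, with overlap.

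In the list of gp130 and gamma chain receptors, JAK, STAT and SOCS genes, 19 of 23 measured beside the members had a higher and 4 a lower mean, with a median log2 difference of 0.11. PIAS4, an inhibitor of STAT factors, was at 64.1 ± 12.5 against 45.7 ± 6.0 CPM (limma adjusted p = 0.368). Of 19 further NF-kappaB targets 16 had a higher and 3 a lower mean, with a median of 0.22. In 8 of the 19 all low libraries were above all high ones, against 10.4% of all genes. IL6, the cytokine whose receptor chain gp130 is restrained by SOCS3, was at 23.1, 48.3 and 32.5 CPM in low against 19.2, 11.8 and 22.9 CPM in high libraries. Its groups were apart by the margin between 23.1 and 22.9 CPM, and its log2 difference was 0.89 with low library 2 and 0.63 without it (limma adjusted p = 0.345 and 0.155). CD44, a hyaluronan receptor, was at 1.85 ± 0.712 against 0.699 ± 0.349 CPM (limma adjusted p = 0.282, and 0.043 without low library 2). Its high mean rests on 38 reads and is below 0.737 CPM, the lowest mean over 6 libraries in the table. As for IL2RG, its presence in the table depends on its low cryosurvival level, so nothing is read from these p-values. BCL2L1, an inhibitor of apoptosis, was at 234 ± 4.83 against 203 ± 9.89 CPM and PTGS2, the inducible prostaglandin synthase, at 1083 ± 141 against 1032 ± 89.3 CPM, with log2 differences of 0.20 and 0.06.

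**Figure D4:**
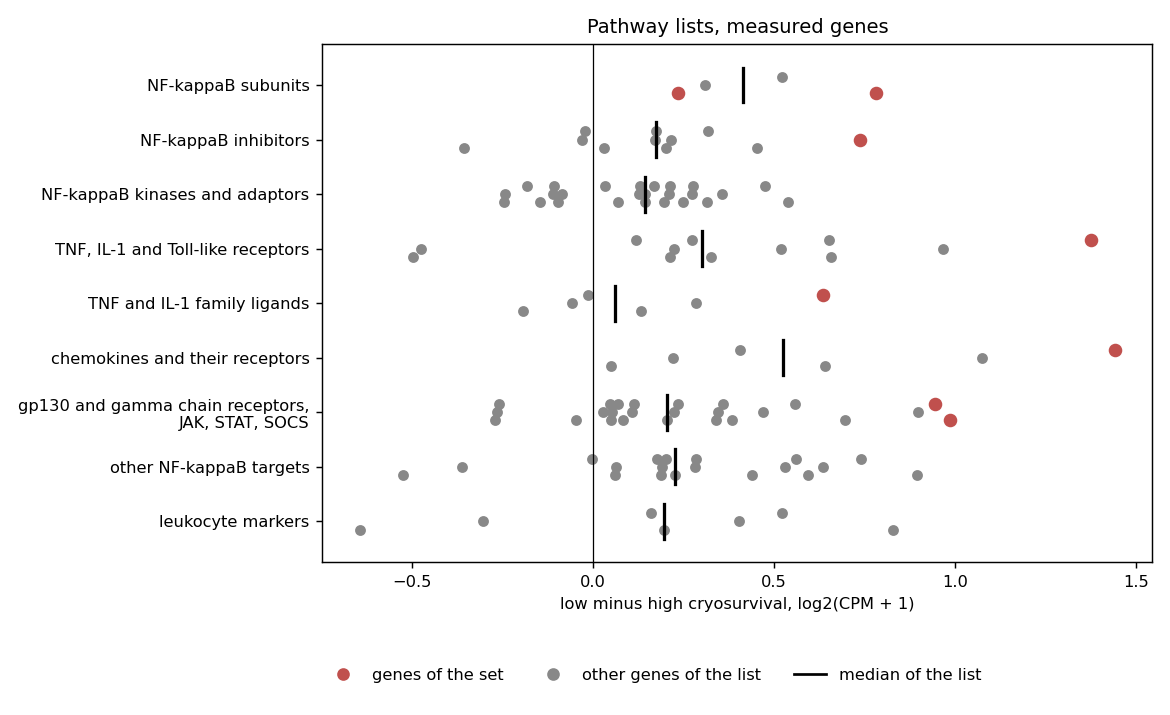
Difference of low minus high cryosurvival (horizontal axis, log2(CPM + 1)) for every measured gene of the 8 pathway lists and of a list of leukocyte markers, with the median of each list as a bar and the 8 members that belong to a list in red (ICAM1 is in none). They lie to the right of 0, and the list medians, members included, run from 0.06 for ligands to 0.52 for chemokines and their receptors. Without the members these medians were -0.01 for ligands and 0.41 for chemokines and their receptors.

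Several members are known best from leukocytes, so markers of other cells were measured beside them. Of 26 leukocyte markers 7 were in the table, none at 0 in all libraries. Their summed level was 35.1 to 43.9 CPM in low and 26.2 to 38.5 CPM in high cryosurvival libraries. The defining genes PTPRC, CD3E, CD79A and SPI1 were not among the 7. Of the 7, 5 had a higher and 2 a lower mean log2 level in low cryosurvival, with a median difference of 0.20. One of the 2 lower markers was CD68. CD68, a macrophage marker, was at 6.30 ± 1.30 CPM in low against 10.3 ± 1.1 CPM in high libraries (limma adjusted p = 0.229). It was lower in low cryosurvival at a limma adjusted p of 0.0374 without low library 2, where 5.48% of all genes were called lower. The part of leukocyte markers in the values of IL2RG, TNFRSF9 and ICAM1 was not tested. The 6 measured of 11 cumulus and granulosa markers summed to 405 to 549 CPM in low and 431 to 556 CPM in high libraries. Trophectoderm markers summed to 28557 to 38782 CPM in low and 33275 to 36734 CPM in high libraries, inner cell mass markers to 1461 to 1615 against 1538 to 1689 CPM, and the 9 measured of 10 hypoblast markers to 1817 to 3134 against 2394 to 3088 CPM. All of these ranges overlapped between the groups. Low library 2 had the highest trophectoderm sum and the lowest inner cell mass and hypoblast sums of the 6 libraries.

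Over the 6 libraries the genes outside the set with the level most like that of NFKB2 were ILDR1, HSPA1A, ELL2, EIF4B and MLEC, with Pearson correlations of log2(CPM + 1) from 0.992 to 0.998. These are a description of 6 values that share the group difference and the library depth. HSPA1A, an inducible heat shock protein with a near-identical copy that may share its reads, was at 729.5, 534 and 648 CPM in low against 314, 361 and 334 CPM in high libraries, with low library 2 the lowest low library as in NFKB2. ELL2, an elongation factor of RNA polymerase, was at 42.7 ± 5.67 against 27.5 ± 2.12 CPM. ILDR1, a tight junction protein, was at 9.90 ± 1.46 against 6.57 ± 0.165 CPM. EIF4B, a translation initiation factor, and MLEC, a lectin of the endoplasmic reticulum, had log2 differences of 0.26 and 0.38. Among the members the correlation with NFKB2 was highest for TNFRSF9 and ICAM1, at 0.954 and 0.952, and lowest for NFKBIA, at 0.569.

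The genes beside the members on the chromosome were also measured. In the RefSeq order of assembly ARS-UCD2.0 the 18 nearest measured genes on either side of the 9 members had log2 differences from -0.32 to 0.28, with 9 above and 9 below 0 and a median of 0.00. The smallest limma adjusted p among them was 0.436. In 3 of the 18 the groups did not overlap. BRMS1L had every low library above every high one, against 10.4% of all genes. MRPL4 and MED11 had every low library below, a direction whose share over all genes was not counted. MED11, the neighbour of CXCL16, was at 8.29 ± 1.09 in low against 10.5 ± 0.838 CPM in high libraries, and ICAM5, the neighbour of ICAM1 and a member of its family, at 0.962 ± 0.216 against 1.04 ± 0.344 CPM. NFKB2, NFKB1 and IL1A overlap other RefSeq genes that were not in the table. The sources used here do not state whether reads were counted by strand, and reads of such genes were not told apart from those of the members.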

How the data were processed

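RNA of bovine blastocysts was sequenced in 6 libraries, grouped by the cryosurvival in their labels. No label tells if libraries of 1 group are separate embryo pools, so p-values cover the spread of these samples alone, and that spread may be technical. Per the labels' protocols, RNA with an integrity number of at least 7.7 entered the NEBNext Ultra II RNA kit. DESeq 1.12.1, HTSeq 0.5.4p2, SAMtools 0.1.18, TopHat2 2.0.8, Cufflinks 2.1.1 and Bowtie2 2.1.0 stand in the submitters' processing notes with no role. Build, annotation and low-value filter were not given in the sources used here.

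The authors deposited, for each gene, CPM values of the libraries with a log2 fold and raw and adjusted p-values, per the file headers. CPM was inferred from the values: those up to 1000 CPM came in steps that give whole reads within 0.05 read in 100% of cases. The log2 fold as deposited has high as its numerator and was used only for the direction of calls. The tool behind these p-values was not given in the sources used here.

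Low was compared with high cryosurvival by limma 3.58.1 (R 4.3.3) on log2(CPM + 1), 6 libraries, no covariate, with Benjamini-Hochberg adjustment over 9537 genes at 0.05. This scale understates the fold of lowly expressed genes. With 3 against 3 libraries an exact permutation test cannot go below 0.1, and none was used. The fit was tested on simulated reads in which no library stood apart. That test does not cover data with a library like low library 2. The alternatives were a pseudocount of 0.25, a filter at a mean of 2 CPM, a trended robust prior, TMM library sizes, a replicate block, each library left out, and, chosen after seeing the data, voom on recovered reads. Counting SDs come from the recovered reads and cover counting error only. The members and lists were chosen with earlier results of these data known. Genes named beside the members are those called by limma or in the deposited table, the 2 with the highest level and the 2 with the largest difference per list, the 5 most like NFKB2, and examples chosen after their values were seen, such as CXCR1 and the neighbouring genes. A gene that this rule takes is not reported here.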

Additional observations from a re-analysis of the deposited data

How the results depend on the processing

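Each of the 106 member differences under an alternative was positive. Of these, 100 moved by less than 1 SD between replicates, and 6 moved further, those of TNFRSF9, IL1A and IL2RG with a pseudocount of 0.25 or voom, up to 2.18 for TNFRSF9. The median difference of the members ran from 0.78 to 1.0 with each library left out. Limma called 7 genes with a pseudocount of 0.25 and 8 among the 8844 genes with a mean of at least 2 CPM, in each case with 1 member, TNFRSF9. IL1A and IL2RG have lower means and drop out under that filter. Leaving out each library gave 0 to 1300 genes, 0 to 6 members and 0 to 24 other pathway genes, the highest counts without low cryosurvival library 2 and 0 without any of the others. The cause was not tested. With the replicate block limma called 0 genes, with 797 at an unadjusted p below 0.05. The main fit did not pair libraries by replicate number. Same-numbered libraries had correlations of deviations of 0.123, -0.261 and -0.312, and the other pairs ran from -0.355 to 0.374. Deviations from a mean of 3 libraries constrain each other, so these values cannot decide whether the libraries were paired. The planned edgeR and DESeq2 tests were not run. Among the members, depth limits IL2RG and TNFRSF9 most, with 35 and 45 reads in the 3 high libraries together.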
